A study of Mus musculus with 6 samples.

Results

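Of the 9 receptor genes for noradrenaline, adrenaline and histamine described here, 1 was higher and 1 was lower in ribosome-bound RNA of PNOC cells than in the RNA of the whole preoptic area. Hrh3, the histamine H3 receptor, rose 1.82-fold and was the receptor with the highest transcript level in both kinds of library. Adra1a, the alpha-1A adrenergic receptor, fell to 0.36 of its Input level and was the receptor with the lowest. The genes were chosen by symbol as the rows Adra1a, Adra1b, Adra1d, Adra2a, Adra2c, Adrb1, Hrh1, Hrh2 and Hrh3 of a table of 27884 genes, and all 9 were in it and passed the filter on low counts. The samples were 3 IP libraries, made from RNA on EGFP-tagged ribosomes caught with an antibody against GFP, and 3 Input libraries, made from the total RNA of the same tissue. All came from the preoptic area (POA) of female NuTRAP::Pnoc-Cre mice aged 17 to 18 weeks, with the tissue of 3 animals pooled in each replicate, so that both groups share genotype, sex and age and differ in the purification. NuTRAP is a transgene that tags ribosomes with EGFP once Cre has acted, and Cre is here under the control of Pnoc, the gene of the nociceptin precursor, so that a cell is tagged if it has made this Cre at any time.

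Noradrenaline reaches the preoptic area in axons from the brainstem and histamine in axons from the tuberomammillary nucleus of the posterior hypothalamus, and both amines act there on body temperature and on sleep. Their receptors have 7 membrane-spanning helices and are sorted by the G protein they engage. The alpha-1 receptors and H1 work through Gq and phospholipase C, which raises calcium and usually excites the neuron. The alpha-2 receptors and H3 work through Gi/o, which lowers cyclic AMP, opens GIRK potassium channels and closes presynaptic calcium channels. The beta receptors and H2 work through Gs, which raises cyclic AMP. H3 and the alpha-2 receptors also sit on axon terminals, where they damp the release of histamine, noradrenaline and other transmitters.

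The coding stretch at the inner end of the third helix, where these receptors touch their G protein, is shown for the members because it is what the family shares. Each line gives the coding strand, 5′ to 3′, with its place on mm39, and capitals mark the codons of the Asp-Arg-Tyr motif or, in Hrh3, of its Asp-Arg-Phe counterpart.
Hrh3, chr2:179744522-179744566, minus strand: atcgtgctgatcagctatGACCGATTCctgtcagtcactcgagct
Adra2a, chr19:54035060-54035104, plus strand: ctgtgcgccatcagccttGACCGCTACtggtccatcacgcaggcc
Adra2c, chr5:35437653-35437697, plus strand: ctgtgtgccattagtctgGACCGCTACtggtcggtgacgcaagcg
Adra1a, chr14:66875375-66875419, plus strand: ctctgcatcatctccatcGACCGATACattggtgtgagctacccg
Adra1b, chr11:43726466-43726510, minus strand: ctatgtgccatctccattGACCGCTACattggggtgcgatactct
Adra1d, chr2:131403504-131403548, minus strand: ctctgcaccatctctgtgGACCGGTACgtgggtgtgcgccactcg
Hrh1, chr6:114457072-114457116, plus strand: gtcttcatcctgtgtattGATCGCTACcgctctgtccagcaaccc
Adrb1, chr19:56711248-56711292, plus strand: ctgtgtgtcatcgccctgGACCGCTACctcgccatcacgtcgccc
Hrh2, chr13:54368350-54368394, plus strand: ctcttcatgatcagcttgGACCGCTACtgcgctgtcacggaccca
The motif was searched in frame, as GAC or GAT, then any codon for arginine, then TAC, TAT, TTC or TTT, and each of the 9 coding sequences held exactly 1 match. Its last codon was TAC in 8 members and TTC in Hrh3, and its first was GAC in 8 and GAT in Hrh1.

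The members are related in sequence without long identical stretches. Over the 36 pairs of coding sequences the longest identical run measured from 10 to 26 bases, with the longest between Adra2a and Adra2c, and 0 members shared a run as long as a 75-base read with another member. Genes on the opposite strand are a different matter. In GENCODE M39, which is on the same assembly, 8 members overlap a long noncoding RNA gene, and 6 share at least 1 run of 75 bases with a transcript from the other strand, namely Adra1d, Adra2a, Adrb1, Hrh1, Hrh2 and Hrh3. Whether counting used strand is not given in the sources used here, so reads of these partners may be included. In their representative transcripts Adra2a, Adra2c, Adrb1 and Hrh1 are coded by 1 exon, Adra1a, Adra1b, Adra1d and Hrh2 by 2, and Hrh3 by 3.

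Per library the total count was 48204567 to 51380354 in IP and 49068467 to 53056642 in Input. Pnoc itself was higher in IP, with a log2 fold change of 2.06 ± 0.22 (SE). All 13 astrocyte, all 10 oligodendrocyte and all 11 microglial markers fell in IP, with median log2 fold changes of -2.56, -3.21 and -3.15, and 0 of these markers were at 0 counts in all 3 IP libraries. Of 15 pan-neuronal genes 7 rose and 1 fell, with a median of 0.36. Markers of regions next to the preoptic area differed between tissue pools within each group and between IP and Input within pools. The summed level of 8 thalamic markers was 807, 2513 and 1477 CPM in IP replicates 1, 2 and 3, against 347, 1416 and 997 CPM in Input replicates 1, 2 and 3. The summed level of 9 markers of cortical excitatory neurons was 158, 384 and 204 CPM in IP and 720, 257 and 177 CPM in Input. The summed level of 10 striatal markers was 780, 411 and 506 CPM in IP and 1989, 539 and 864 CPM in Input. CPM is the count scaled to library size with TMM factors, which adjust for differences in RNA makeup. Input replicate 1 thus stood highest in cortical and striatal markers and lowest in thalamic ones, and IP replicate 2 highest in thalamic ones. In all 3 same-numbered pairs the thalamic sum was higher and the striatal sum lower in IP. Calb2, the thalamic marker called higher in edgeR, gave 572 of the 807 CPM in IP replicate 1. In Input replicate 1 it gave 173 of the 347 CPM. Rora and Plekhg1 were lower in IP than in Input in replicate 1, and the other thalamic markers were higher. Of the tested markers 1 of 8 thalamic ones was called higher (5 with the replicate as a block), 3 of 10 striatal ones lower and 1 higher (7 and 1 with the block), and 0 of 8 cortical ones in either direction (3 lower with the block), where 0 cortical ones had an unadjusted p under 0.05 in edgeR or were called by DESeq2.

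Hrh3 was the most abundant receptor transcript of the set by a wide margin. In FPKM, the authors' count scaled to gene length and library size, Hrh3 averaged 39.5 ± 5.75 in IP (SD, n = 3), above 91.3% of the 18640 genes tested. Behind it in IP came Adra1b at 8.14 ± 5.57, Adra2a at 6.52 ± 1.35, Adrb1 at 4.49 ± 1.66, Adra2c at 3.86 ± 0.97 and Hrh1 at 3.67 ± 0.38 FPKM (SD, n = 3 each). Each of these 5 overlapped its neighbour in the order. Adra1d at 1.88 ± 1.15 and Hrh2 at 1.64 ± 0.17 FPKM overlapped each other. They had lower means than these 5, although the highest IP library of Adra1d, at 3.20 FPKM, was level with the lowest of Adrb1 and above the lowest of Adra2c, at 3.15 FPKM. Adra1a was last at 0.157 ± 0.047 FPKM, clear of all the others. In Input the order was nearly the same, with Hrh3 first at 21.3 ± 2.27 FPKM, Adra1a last at 0.428 ± 0.110 FPKM and the other 7 overlapping in a chain between 2.42 and 5.37 FPKM. Levels per length depend on the length used. The deposited table gives Adra1d 1899 bases, Hrh2 5935 and Adra1a 8728, while their representative transcripts in GENCODE M39 have 4166, 2811 and 4372 bases, so that the order of Adra1d and Hrh2 is not settled by these values.

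**Figure D1:**
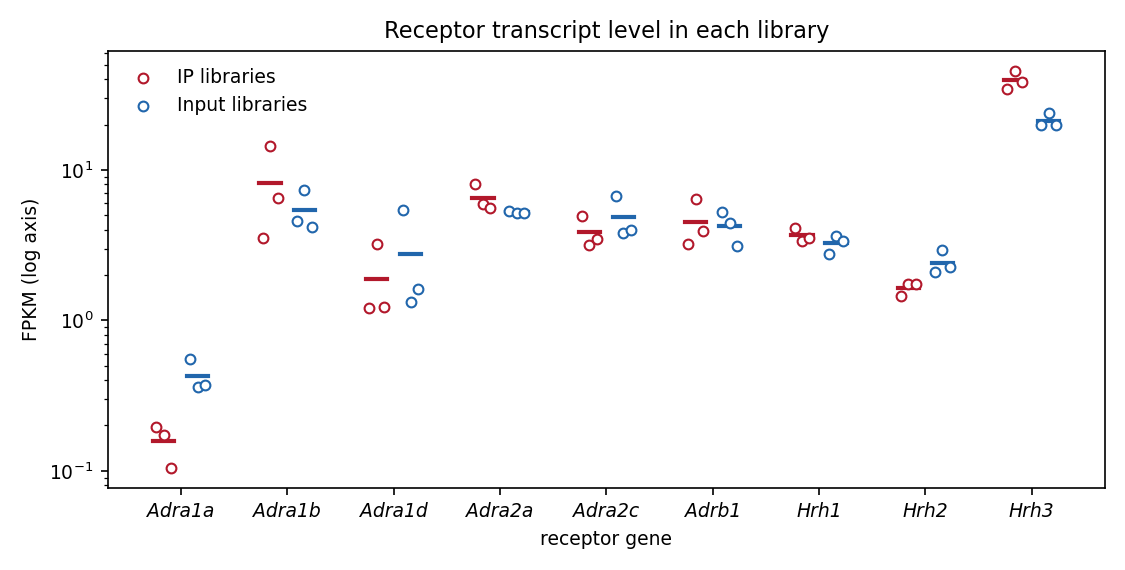
Transcript level (FPKM, log axis) of each receptor gene in each library, with IP in red left of Input in blue; open circles are single libraries, in the order of replicates 1, 2 and 3, and bars are group means. Hrh3 stands above every other gene and Adra1a below every other gene in both groups, and the 2 groups are clear of each other for Hrh3, Adra1a and Hrh2.

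Of the 9 members, 1 was called higher and 1 lower in IP with edgeR at an adjusted p under 0.05, against 12.9% and 17.1% of all genes tested. The share of members called in either direction, 22.2%, was below the 30.0% of all genes tested. IP and Input did not overlap for 3 members, Hrh3, Adra1a and Hrh2, beside 47.7% of all genes tested. The members' median log2 fold change was 0.04, against -0.07 for all genes tested. As a set, the receptors were therefore not called more often than genes in general. In these bulk libraries fewer cells with a transcript and less transcript per cell cannot be told apart.

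**Figure D2:**
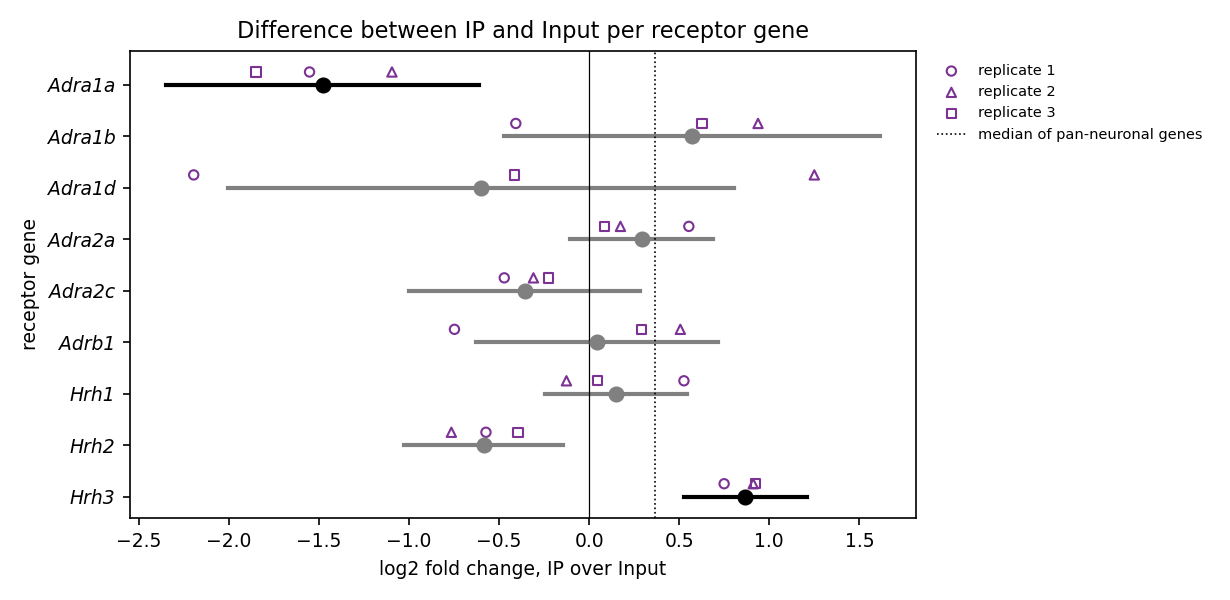
Log2 fold change of IP over Input for each receptor gene, with dots for the edgeR estimate, lines for its 95% interval and open symbols for the 3 same-numbered pairs of libraries; black marks an adjusted p under 0.05 and the dotted line the pan-neuronal median of 0.36. The 3 pairs lie close together for Hrh3, from 0.75 to 0.92, and far apart for Adra1d, from -2.20 to 1.25.

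Among the Gi/o-coupled receptors, Hrh3 rose and the alpha-2 genes did not pass the test. Hrh3 (ENSMUSG00000039059, chromosome 2, 179741258 to 179746281, minus strand, mm39) encodes the receptor through which histamine neurons sense their own transmitter and through which histamine limits the release of other transmitters. It had 5094, 6612 and 6004 counts in IP replicates 1, 2 and 3, against 3345, 4152 and 3298 counts in Input. Every IP library was above every Input library. In CPM this was 109, 143 and 121 in IP against 64.6, 76.3 and 63.7 in Input. The log2 fold change was 0.87 ± 0.15 (SE, 95% interval 0.52 to 1.21) with an adjusted p of 0.00402 in edgeR. The same-numbered pairs gave 0.75, 0.91 and 0.92, so all 3 tissue pools showed the direction at nearly the same size. With each library scaled to the geometric mean of the 15 pan-neuronal genes in place of TMM, Hrh3 was still higher in IP, at 0.55 ± 0.13 (SE, adjusted p = 0.0151, edgeR). The call was kept without any one library and was lost without both libraries of replicate 3, at a log2 fold change of 0.84 (adjusted p = 0.0924, edgeR), where the number of all genes higher in IP was 133 in place of 2400.

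Adra2a and Adra2c encode the alpha-2A and alpha-2C receptors, which act as brakes on noradrenaline release and also on the neurons that noradrenaline reaches. Adra2a (chromosome 19, 54032582 to 54037413) had 39.2, 28.8 and 26.7 CPM in IP replicates 1, 2 and 3, against 26.7, 25.5 and 25.1 CPM in Input replicates 1, 2 and 3. The Input libraries were nearly equal and IP replicate 1 stood above the other two, while IP replicate 3 was level with Input replicate 1. The difference on the log2 scale was 0.29 ± 0.17 (SE, 95% interval -0.11 to 0.69, adjusted p = 0.242, edgeR), below the pan-neuronal median, and -0.02 with pan-neuronal scaling. Adra2c (chromosome 5, 35435663 to 35439107) had 17.2, 10.8 and 11.9 CPM in IP, against 23.9, 13.4 and 13.9 CPM in Input. Replicate 1 was the highest of its group in both, and in each of the 3 pairs IP was below Input, by -0.47, -0.31 and -0.23 on the log2 scale. The groups overlapped, and the log2 fold change was -0.36 ± 0.28 (SE, 95% interval -0.999 to 0.28, adjusted p = 0.377, edgeR). With the replicate as a block its adjusted p was 0.176.

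The Gq-coupled receptors differed most among themselves. Adra1a (ENSMUSG00000045875, chromosome 14, 66872700 to 67008617, plus strand) had 80, 69 and 45 counts in IP replicates 1, 2 and 3, against 259, 174 and 169 counts in Input. All IP libraries were below all Input libraries, at levels near the low end of what was tested. In CPM these were 1.71, 1.496 and 0.907 in IP against 5.003, 3.20 and 3.27 in Input. The log2 fold change was -1.48 ± 0.38 (SE, 95% interval -2.35 to -0.61), with an adjusted p of 0.0204 in edgeR, and Input was 2.79-fold above IP. The call was lost without IP replicate 2 (-1.54, adjusted p = 0.0554, edgeR), IP replicate 3 (-1.25, 0.0618), Input replicate 1 (-1.23, 0.0575) or Input replicate 3 (-1.53, 0.0523), and without both libraries of any 1 replicate, while its size stayed between -1.80 and -1.23 in all fits. Beside this fall, 7 of 8 markers of oligodendrocyte precursors and all 13 astrocyte markers fell. The precursor markers summed to 109 to 134 CPM in IP and 333 to 373 CPM in Input, and the astrocyte markers to 1287 to 1354 CPM in IP and 5216 to 5574 CPM in Input. Their part in the fall of Adra1a was not tested.

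Adra1b and Adra1d, the alpha-1B and alpha-1D receptors, varied more between libraries of the same group than between the means of IP and Input. Adra1b (chromosome 11, 43665433 to 43792037) had 12.1, 48.4 and 22.03 CPM in IP replicates 1, 2 and 3, against 16.03, 25.3 and 14.3 CPM in Input replicates 1, 2 and 3. Replicate 2 was the highest in both groups, as it was for the thalamic markers. The log2 fold change was 0.57 ± 0.46 (SE, 95% interval -0.48 to 1.62, adjusted p = 0.388, edgeR), and without IP replicate 2 it was -0.12. Adra1d (chromosome 2, 131387770 to 131404203) had 2.30, 6.07 and 2.32 CPM in IP, against 10.5, 2.55 and 3.09 CPM in Input. Its pools did not keep their order between the groups, with same-numbered pairs from -2.20 to 1.25 on the log2 scale. Input replicate 1 was the highest, followed by IP replicate 2, and the same 2 libraries were the highest in the summed cortical markers. The log2 fold change was -0.60 ± 0.61 (SE, 95% interval -2.00 to 0.81, adjusted p = 0.504, edgeR), and without Input replicate 1 it was 0.35. The part of neighbouring tissue in either gene was not tested.

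Hrh1, the H1 receptor, which conveys the arousing action of histamine and is the target of sedating antihistamines, was among the steadiest members. Hrh1 (chromosome 6, 114374897 to 114460257) had 18.4, 15.0 and 15.7 CPM in IP, against 12.7, 16.3 and 15.2 CPM in Input. The groups overlapped, with a log2 fold change of 0.15 ± 0.17 (SE, 95% interval -0.25 to 0.54, adjusted p = 0.56, edgeR). In terms of fold the interval runs from 0.84 to 1.45, so that the Hrh3 estimate of 1.82 lies outside it. The Hrh3 interval, from 1.439 to 2.309, overlaps its upper end, and the difference between Hrh1 and Hrh3 was not tested.

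**Figure D3:**
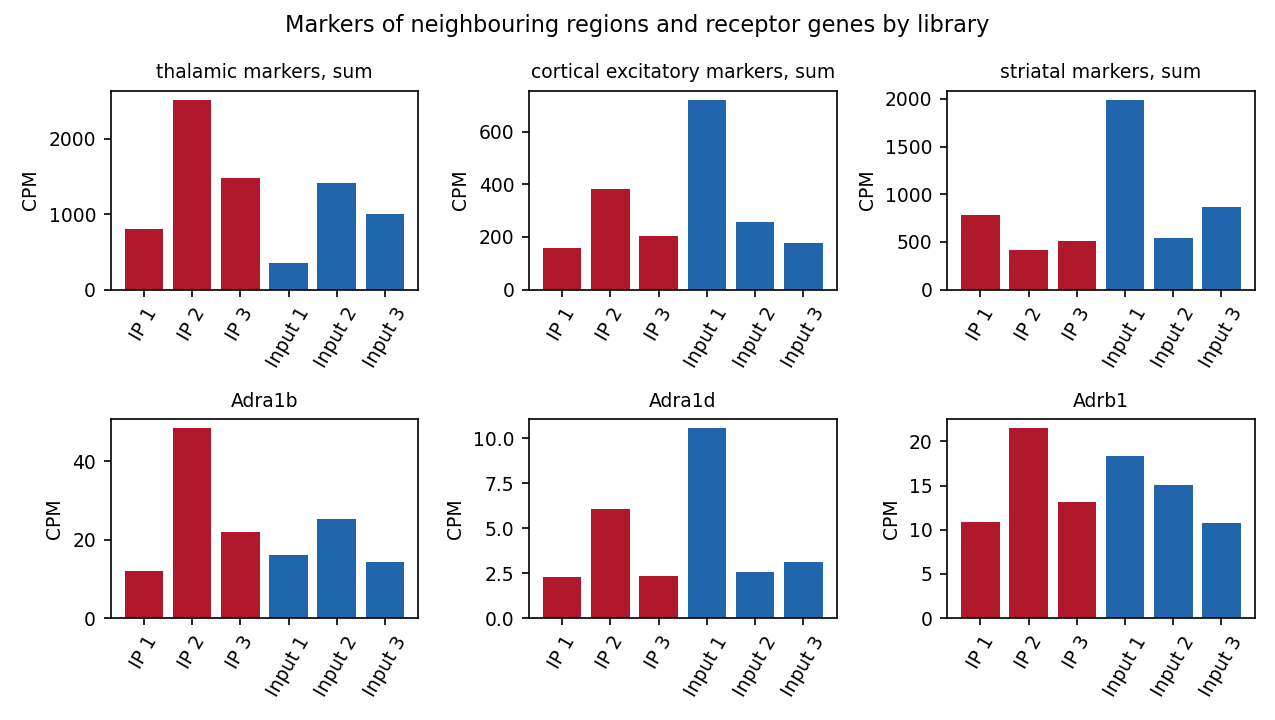
Summed CPM of thalamic, cortical excitatory and striatal markers (top) and CPM of Adra1b, Adra1d and Adrb1 (bottom) in each library, IP in red and Input in blue, 1 bar per library. Thalamic markers and Adra1b peak in IP replicate 2, at 2513 and 48.4 CPM, and cortical markers and Adra1d peak in Input replicate 1, at 720 and 10.5 CPM.

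Of the Gs-coupled receptors, Adrb1 did not differ beyond its spread and Hrh2 just missed the threshold. Adrb1 (chromosome 19, 56710631 to 56721545), the beta-1 receptor, had 10.9, 21.5 and 13.2 CPM in IP, against 18.3, 15.1 and 10.7 CPM in Input. IP replicate 2 and Input replicate 1 were again the highest, and the groups overlapped over most of their range. On the log2 scale the difference was 0.04 ± 0.29 (SE, 95% interval -0.63 to 0.72, adjusted p = 0.927, edgeR). Hrh2 (chromosome 13, 54346148 to 54390199), the H2 receptor, known in brain for raising excitability by closing a calcium-activated potassium current, had 405, 476 and 512 counts in IP, against 665, 955 and 702 counts in Input. Every IP library was below every Input library, at 8.64, 10.3 and 10.3 CPM in IP against 12.8, 17.5 and 13.6 CPM in Input. The log2 fold change was -0.59 ± 0.19 (SE, 95% interval -1.03 to -0.14), and its adjusted p of 0.0506 in edgeR missed the threshold. With the replicate as a block it passed (-0.58, adjusted p = 0.0428, edgeR), with the length correction added to the block it did not (-0.46, adjusted p = 0.0857), and with pan-neuronal scaling it passed at -0.89 (adjusted p = 0.0078). Without Input replicate 1 it passed as well (-0.67, adjusted p = 0.0402, edgeR). Without any other single library it did not pass, at adjusted p values from 0.105 to 0.169 in edgeR. Of 20 alternative fits, 5 called Hrh2 lower.

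**Figure D4:**
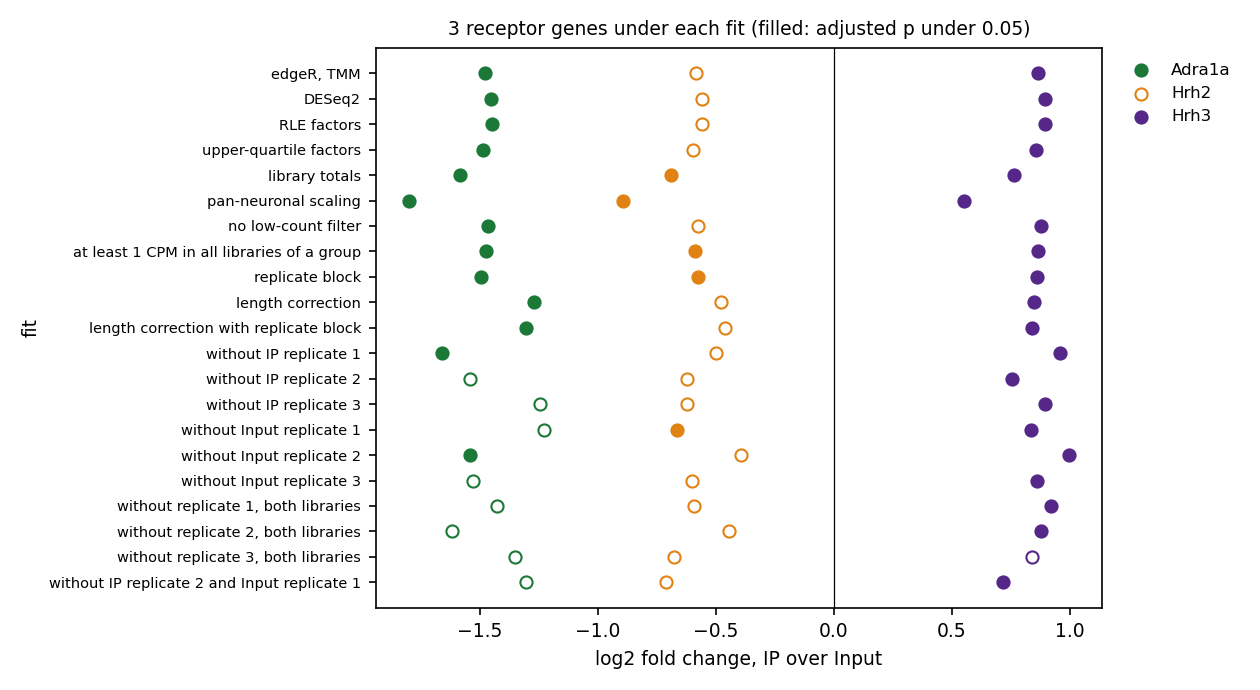
Log2 fold change of IP over Input for Adra1a, Hrh2 and Hrh3 under each fit, 1 row per fit, with filled circles for an adjusted p under 0.05. Hrh3 stays between 0.55 and 0.997, Adra1a between -1.80 and -1.23 and Hrh2 between -0.89 and -0.40, and open circles mark the fits in which each missed the threshold.

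Hrh3 held a larger share of the receptor transcripts in IP than in Input. It made up 56.2%, 54.4% and 59.7% of the 9 genes' summed FPKM in IP replicates 1, 2 and 3, against 37.8%, 45.15% and 45.45% in Input. Grouped by coupling, the Gi/o genes held 72.1 ± 6.29% in IP and 63.05 ± 2.78% in Input (SD, n = 3 each). These shares overlapped, with IP replicate 2 at 65.24% and Input replicate 3 at 66.15%. The Gq genes held 19.2 ± 5.32% in IP and 23.6 ± 1.86% in Input, and the Gs genes 8.67 ± 1.02% in IP and 13.35 ± 0.95% in Input. The Gq shares overlapped between the groups and the Gs shares did not. In summed FPKM both classes overlapped between IP and Input. The Gs genes summed to 4.65, 8.10 and 5.65 FPKM in IP and 7.35, 7.31 and 5.39 FPKM in Input. The Gq genes summed to 9.04, 21.1 and 11.4 FPKM in IP and 13.3, 12.7 and 9.50 FPKM in Input. The 8 genes other than Hrh3 summed to 26.7, 38.3 and 26.1 FPKM in IP and 32.7, 29.0 and 24.0 FPKM in Input, so the groups overlapped once Hrh3 was set aside. These shares describe transcripts per length and carry no test.

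Adra2b and Adrb3, further genes of the adrenergic family, did not pass the test in edgeR. Adra2b, the alpha-2B gene (chromosome 2, 127205128 to 127209141), had 2.03, 5.68 and 3.65 CPM in IP, against 0.58, 2.70 and 4.21 CPM in Input, with replicate 1 the lowest in both groups, as for the thalamic markers. Its log2 fold change was 0.60 ± 0.66 (SE, adjusted p = 0.534, edgeR). Adrb3, the beta-3 gene that drives heat production in brown fat, had 71, 48 and 47 counts in IP, against 20, 48 and 24 counts in Input. IP and Input did not overlap in CPM, at 1.51 CPM or less in every library, and the log2 fold change was 1.011 ± 0.55 (SE, adjusted p = 0.206, edgeR). Hrh4 was not analysed here.

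The genes that make, store and clear the amines were followed with lists of the pathway. Of 5 tested genes of amine synthesis and transport 2 rose, and 3 with the replicate as a block. Th, which makes the dopamine precursor, had 54.1 ± 5.82 CPM in IP and 28.6 ± 7.13 CPM in Input (SD, n = 3), and Ddc, the decarboxylase that follows it, had 67.8 ± 2.83 CPM in IP and 38.1 ± 8.48 CPM in Input (SD, n = 3). Dbh, which turns dopamine into noradrenaline, had 0, 8 and 0 counts in IP and 0, 6 and 18 counts in Input, and Slc6a2, the noradrenaline transporter, had 0, 2 and 0 counts in IP and 0 in all Input libraries. Both genes were too low to be tested. Hdc, the histamine-making enzyme, had 22.4, 19.9 and 7.19 CPM in IP, against 8.77, 12.9 and 6.92 CPM in Input, with a log2 fold change of 0.79 ± 0.41 (SE, adjusted p = 0.184, edgeR). Of 8 genes of breakdown and uptake 1 rose and 3 fell. Slc29a4, a monoamine transporter of the plasma membrane, rose by 0.75 ± 0.20 (SE), Aldh2, an aldehyde dehydrogenase, stood at -0.87 ± 0.14 (SE) and Maob, the monoamine oxidase typical of glia, at -1.07 ± 0.21 (SE) on the log2 scale.

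The signalling genes below the receptors moved both ways. Of 19 genes of the Gs and cyclic AMP cascade 4 rose and 4 were lower, and the list's median was 0.10 on the log2 scale. Prkar1a, a regulatory subunit of protein kinase A, and Pde4a, a cyclic AMP phosphodiesterase, rose by 0.48 ± 0.12 and 0.47 ± 0.13 (SE), while the phosphodiesterase gene Pde4d stood at -1.53 ± 0.33 and the cyclase gene Adcy9 at -2.60 ± 0.58 (SE). Of 12 genes of the Gq cascade 2 fell, Plcb3, a phospholipase C, at -2.12 ± 0.27 (SE) and Gnaq, the Gq subunit, at -0.55 ± 0.17 (SE), with a median of -0.04. Of 11 genes of Gi/o proteins and their channel effectors 1 rose, Gnaz, a Gi-family subunit, by 0.57 ± 0.13 (SE), and 1 fell, Gnai3, at -0.76 ± 0.13 (SE). Of 15 genes that regulate receptors 2 rose, the receptor kinases Grk6 and Grk2, by 0.64 ± 0.13 and 0.44 ± 0.11 (SE). Over these 6 lists 20 of 70 genes tested were called, 10 in each direction, beside 30.0% of all genes tested. Of the 20, 8 kept the call without any one library, namely Th, Ddc, Maob, Aldh2, Pde4d, Plcb3, Gnai3 and Grk6, and 0 kept it without both libraries of replicate 3. Of the other genes named, Slc29a4 and Grk2 lost the call when any one of the IP libraries or Input replicate 3 was left out, Gnaz without IP replicate 2, and Adcy9 without IP replicate 3. Prkar1a lost it without IP replicate 1 or 2, Pde4a without either of these or Input replicate 3, and Gnaq when any one library other than Input replicate 2 was left out. With the replicate as a block the Gq list had 1 gene higher and 3 lower, the Gi/o list 2 and 2, and the regulators 2 and 1. With pan-neuronal scaling, 0 genes of the Gs cascade, of the Gi/o list and of the regulators were higher, in place of 4, 1 and 2, and 5 genes of the Gi/o list were lower in place of 1. With library totals, 0 genes of the Gs cascade were higher. The length correction gave 6 higher genes in the Gs list, 3 among the regulators, 3 in synthesis and transport, 2 in the Gi/o list and 1 in the Gq list. Together with the block it gave 8, 4, 4, 2 and 3 in the same order of lists.

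**Figure D5:**
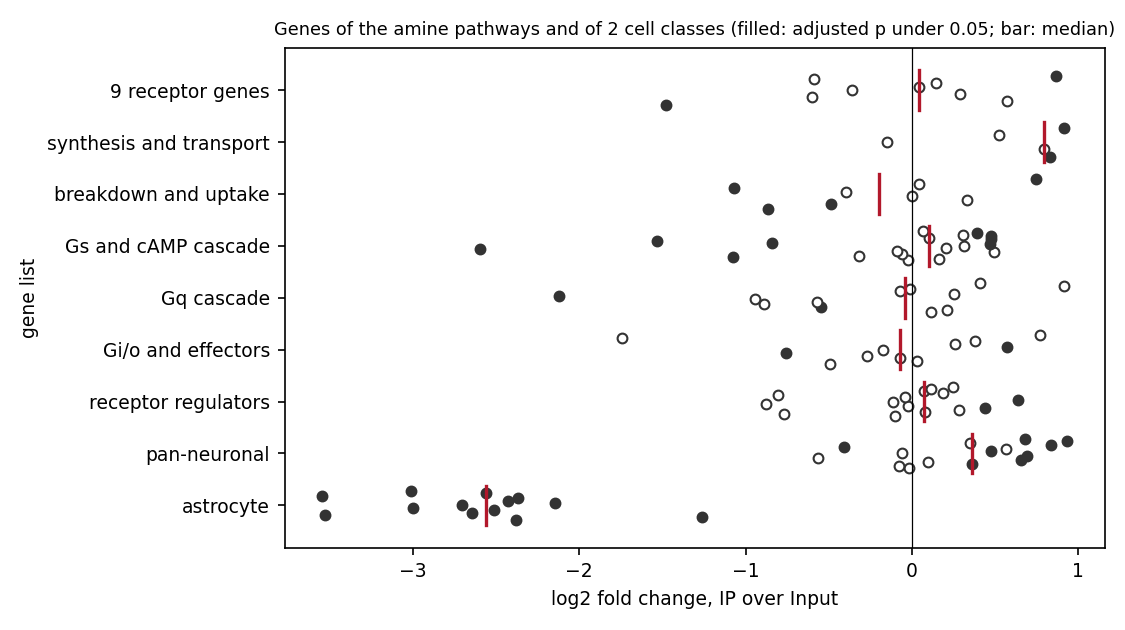
Log2 fold change of IP over Input for the genes of each list (1 circle per gene, filled where the adjusted p was under 0.05), with red bars for list medians. The receptor genes and the signalling lists centre near 0, the pan-neuronal genes at 0.36 and the astrocyte markers at -2.56.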

How the data were processed

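RNA of 3 IP and 3 Input libraries, paired by tissue pool, was compared from 1 deposited table. The submitters' processing notes name HISAT2, featureCounts, DESeq2 and the mm39 build. The read counts per gene were deposited by the authors without normalization. The deposited normalized signal equals the counts divided by 1 factor per library, and was not tested. FPKM values, as deposited by the authors, are proportional to counts per gene length in each library. The log2 fold changes and p-values of the authors' deposited table support no result here.

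Counts were tested with edgeR 4.0.16 (glmQLFit, glmQLFTest) in R 4.3.3, two-sided, with TMM factors, the filterByExpr filter and group as the one term, over 18640 genes with Benjamini-Hochberg adjustment and a threshold of 0.05. The SE is the log2 fold change divided by the square root of F. A count of 3 equals 0.0551 to 0.0651 CPM, and precision covers counting and the spread between pools. The test was tried on simulated data first. It called 33 of 100 genes given a log2 change of 1, and 70 of 100 given a change of 2. A member that did not pass may therefore still differ. P-values of the main fit weigh the group difference against the spread between libraries within a group, and leave the pairing aside. The replicate numbers pair the samples, since the design text takes Input from each sample. Deviations of same-numbered libraries correlated at 0.264, 0.144 and 0.102. Those of differently numbered libraries correlated at -0.22 to 0.092, so the value of replicate 3 hardly stood apart. The fit with this block was an alternative. Others were DESeq2 1.42.0, other scalings and filters, a correction for gene length with a spline of 4 degrees of freedom, and libraries left out.

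The members and lists were chosen with earlier results of these data known. Named genes are all members, their relatives in the table, and in each list the 2 called genes with the smallest adjusted p per direction. Dbh, Slc6a2 and Hdc were added after their values were seen. Some genes that the rule names are not reported here. Sequences and gene structures came from GENCODE M39 on the same assembly.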

Additional observations from a re-analysis of the deposited data

How the results depend on the processing

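The number of members higher in IP was 1 in every fit except the one without both libraries of replicate 3, where it was 0, so that leaving out libraries gave 0 to 1. The number lower was 1 in the main fit, 2 with library totals, pan-neuronal scaling, the filter of at least 1 CPM and the replicate block (Hrh2 was added to Adra1a), 0 to 1 when libraries were left out, and 0 without IP replicate 2 and Input replicate 1, an alternative added after seeing the data. Leaving out libraries gave 133 to 2630 genes higher in IP (1417 without IP replicate 3, 1479 without IP replicate 2, 1445 without Input replicate 3, and 1508 with replicate 2 left out of both groups), in place of 2400. It gave 742 to 3080 lower (2035 without Input replicate 3, and 2095 with replicate 2 left out of both groups), in place of 3191. With pan-neuronal scaling these counts were 886 and 4964, as that scaling shifted the median log2 fold change by -0.31. Library totals shifted it by -0.11. The replicate block, with 2838 genes higher and 3617 lower, changed no other member's call. Adra1b, Adra1d, Adra2a, Adrb1 and Hrh1 changed sign in at least 1 fit and Adra2c in the added one. None of these 6 passed in any fit. Levels as CPM per kilobase differed from FPKM by less than 1 SD for all 9 members. With 3 pools a group and Adra1a at 45 to 80 counts in IP, depth limits that gene most, and counting errors assume independent reads.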

Other observations

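Over the 6 libraries, genes whose log2 CPM closely followed that of Hrh3 were Gm2296 and Lynx1, each with a Pearson r of 0.997. For Adra1a the closest were Aco1, Ecd and Zswim5, at 0.998, 0.997 and 0.996. They were among the 3 highest of 13130 genes compared in each case. The 6 libraries share 3 tissue pools and fall into 2 groups, so that any gene with a like difference between IP and Input scores high.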
